A study of Mus musculus with 6 samples.

Results

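Interleukin-33, the IL-1 family genes around it and the stromal alarmin Tslp are described here, across 6 libraries of cultured mouse fat stromal cells. The 9 genes, taken by symbol from the 55011 rows of the deposited count table, are Il33, Il18, Il1a, Il1b and Tslp (cytokines), Il1r1, Il1rl1 and Il1rap (receptor chains) and Il1rn (a secreted receptor antagonist). All 9 symbols have a row. The cells were stromal cells of visceral adipose tissue (VAT in the labels, eWAT in the design text), negative for the EGFP reporter of Il33 (genotype label Il33-EGFP-), and that holds for both groups. One group of 3 libraries received PBS, and the other group of 3 received 10 nM irisin/HSP90α, called irisin below, for 3 days. Irisin is shed into the blood from Fndc5, a membrane protein of muscle, and HSP90α is a heat-shock chaperone found inside and outside cells. Strain, sex and age of the mice, and the presence of HSP90α in PBS wells, are not given in the labels. Nothing says that libraries came from separate cultures or animals, so p-values measure the spread between these libraries, which may be technical.

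Alarmins are molecules that cells release when they are damaged or stimulated, and IL-33 and TSLP are alarmin cytokines of barrier and stromal cells. IL-33 is held in the nucleus and, once outside, binds ST2, the product of Il1rl1, which then pairs with the accessory protein encoded by Il1rap. IL-1α and IL-1β, the products of Il1a and Il1b, bind the receptor encoded by Il1r1, which pairs with the same accessory protein, and both receptors signal through MyD88 and IRAK kinases to NF-κB. In visceral fat, stromal and mesothelial cells are the known sources of IL-33, and group 2 innate lymphoid cells and regulatory T cells are its known responders.

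Of the 9 genes, 2 rose with irisin (Il33 and Il1r1), 2 fell (Il1rl1 and Tslp), 2 did not pass the threshold (Il1rap and Il18), and 3 had too few counts to be tested (Il1rn, Il1a and Il1b). A gene passed when its adjusted p in edgeR's quasi-likelihood test, corrected by the Benjamini-Hochberg method over all 12296 genes tested, was under 0.05. Across all those genes 7.42% passed, 4.20% as higher and 3.22% as lower. These were 516 higher and 396 lower genes, and 422 and 602 with libraries scaled by total counts alone, under which the calls of the 9 genes were the same. The median log2 fold change was 0.13 for the 6 genes tested and -0.01 for all genes tested. The libraries of the groups did not overlap in 23.6% of all genes tested, with irisin higher in 12.1% and lower in 11.5%. Levels are CPM (counts scaled for the size of each library), listed for PBS replicates 1, 2 and 3 and irisin replicates 1, 2 and 3 in that order, and log2 fold changes are irisin against PBS ± standard error.

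**Figure D1:**
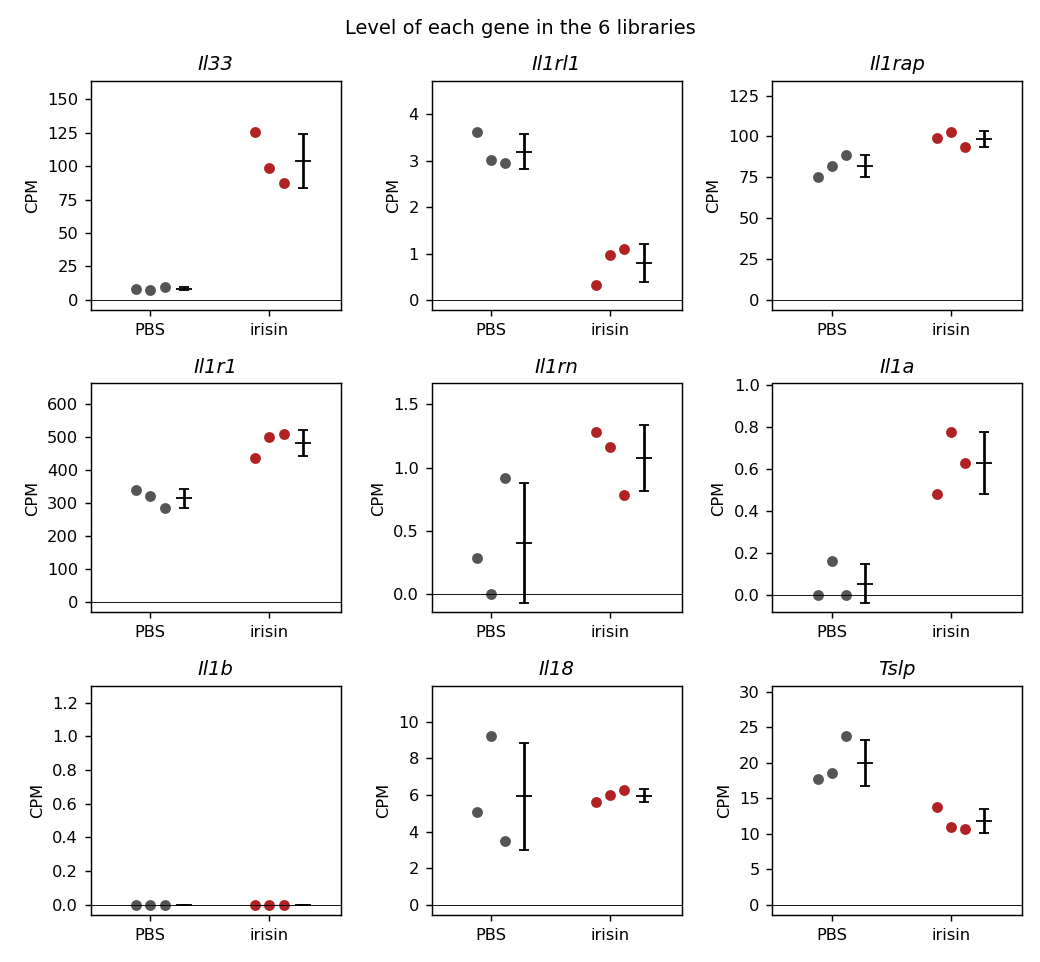
Level in CPM (y axis) of each of the 9 genes in the 3 PBS libraries (grey points) and the 3 irisin libraries (red points), with the mean and SD of each group beside the points. Il33 reads 7.61 to 9.76 CPM in PBS and 87.4 to 126 in irisin, Il1rl1 and Tslp are lower in every irisin library than in any PBS library, and Il1b is at 0 throughout.

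Libraries held 5271309 to 6745799 counts, so 1 CPM stood on 5.17 to 6.89 counts. The 10 stromal markers were all tested, and 2 passed as higher (Pdgfra and Col1a1) and 2 as lower (Thy1 and Lum). They summed to 38752 to 46166 CPM in PBS and 52042 to 57027 CPM in irisin, most of it the collagens Col3a1, Col1a1 and Col1a2. Ptprc, which encodes the pan-leukocyte protein CD45, had 0 to 3 counts in a library. Of 15 markers of macrophages and other leukocytes, 4 were tested and 11 were not, and the list summed to 71 to 88.9 CPM in PBS and 71.9 to 94.4 CPM in irisin, most of it Csf1r. On the second principal component of the tested genes (23.6% of variance), PBS replicate 3 and irisin replicate 1 lay apart, at scores of 31.8 and 18.1 against -16.8 to -8.63 in the other 4 libraries.

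Il33 showed the widest change of the 9 genes. Its level was 7.84, 7.61 and 9.76 CPM in PBS and 126, 98.4 and 87.4 CPM in irisin, which rest on 48 to 54 counts in a PBS library and 509 to 788 in an irisin library. The lowest irisin library was far above the highest PBS library, and the difference was 12.4-fold (log2 fold change 3.64 ± 0.17, 95% interval 3.27 to 4.0, adjusted p = 3.91e-08). That was the 12th largest log2 fold change of the 12296 genes tested. Cultures of cells labelled negative for the reporter thus held some Il33 RNA in PBS. Whether every cell was still negative at lysis was not tested. In bulk RNA, more cells that express a gene and more of its RNA per cell cannot be told apart.

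Krt18, a keratin of mesothelial cells, which are a known Il33 source in visceral fat, was uneven between libraries. It had 0, 18 and 8 counts in PBS and 42, 0 and 14 counts in irisin. The 5 epithelial markers were uneven in the same order of libraries. They summed to 0.145, 3.33 and 0.552 CPM in PBS and 4.48, 0 and 3.14 CPM in irisin, and the 1 tested did not pass. Irisin replicate 1 had the most Il33 and the most Krt18 counts, and irisin replicate 2, with 0 Krt18 counts, had 98.4 CPM of Il33. The defining mesothelial genes Msln and Upk3b had 0 to 3 counts per library, and the whole list of 10 summed to 37.6 to 43.9 CPM in PBS and 44.3 to 54.4 CPM in irisin, most of it Wt1, which stromal cells of visceral fat also express. Of this list 2 genes were tested and neither passed. Without irisin replicate 1 the log2 fold change of Il33 was 3.47 (adjusted p = 3.36e-08 by edgeR). The part of mesothelial or epithelial cells in the rise of Il33 was not tested.

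Il33 lies on chromosome 19 of the mouse assembly GRCm38 (mm10), from 29925114 to 29960718 on the plus strand, and GENCODE release M21 lists it as protein-coding with 5 transcripts and 2886 exon bases. Transcripts of Il33 begin at more than 1 start site. The promoter windows of both RefSeq starts (250 bases before to 50 after, GRCm38.p6, plus strand, chr19:29924863-29925162 and chr19:29945540-29945839) are shown because the counts sum over the whole gene and cannot tell which start was used, and capitals mark matches to the motif TATAAA.
Il33 upstream start: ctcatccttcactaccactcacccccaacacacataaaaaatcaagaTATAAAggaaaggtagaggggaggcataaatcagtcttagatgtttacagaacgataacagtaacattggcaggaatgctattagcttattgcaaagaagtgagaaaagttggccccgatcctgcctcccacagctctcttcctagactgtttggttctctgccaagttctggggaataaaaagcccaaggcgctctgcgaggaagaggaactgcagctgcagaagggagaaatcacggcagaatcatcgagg
Il33 downstream start: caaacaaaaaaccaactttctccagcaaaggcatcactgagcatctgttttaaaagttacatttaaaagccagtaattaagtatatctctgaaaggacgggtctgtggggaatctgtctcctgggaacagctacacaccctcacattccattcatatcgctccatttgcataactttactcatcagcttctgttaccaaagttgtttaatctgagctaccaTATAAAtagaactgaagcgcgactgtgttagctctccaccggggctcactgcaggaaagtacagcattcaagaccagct
In the downstream window the TATAAA begins 29 bases before the start, and in the upstream window 203 bases before it. TATAAA on either strand was found in 13.6% of all 32851 windows of this length. Neither Il33 window holds a match, on either strand, to an NF-κB-like motif, the AP-1-like motif TGANTCA or the STAT-like motif TTCNNNGAA, which were found in 4.79%, 7.81% and 8.30% of all windows.

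Likeness to Il33 over the 6 libraries was measured by root mean square distance between log2 profiles centred on their own means. Genes with predicted (Gm), Rik or pseudogene (-ps) symbols were passed over. The closest of the other tested genes were Col24a1 (0.153), Serpinb2 (0.220), Ccl2 (0.220), Ifitm1 (0.275) and Ndufa4l2 (0.326). Col24a1 encodes a fibrillar collagen chain, Serpinb2 an inhibitor of plasminogen activators and Ccl2 a monocyte chemokine. Col24a1 was low, from 0.536 ± 0.0544 to 6.78 ± 1.14 CPM (SD, n = 3 per group), a 12.2-fold rise beside the 12.4-fold rise of Il33. Its irisin libraries alone reached the count minimum of 10 of the filter that chose genes to test. Ccl2 rose 10.8-fold and Serpinb2 16.2-fold. Of the 4 tested genes within 250 kb of Il33, 0 passed in edgeR, DESeq2 or limma-voom, and 1 had an unadjusted p under 0.05.

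Il1rl1, the gene of the IL-33 receptor ST2, moved the opposite way. It was at 3.63, 3.01 and 2.95 CPM in PBS and at 0.32, 0.966 and 1.1 CPM in irisin. The groups did not overlap, with irisin lower, as in 11.5% of all genes tested. These levels rest on only 25, 19 and 16 counts in PBS and on 2, 5 and 7 counts in irisin. Il1rl1 was 3.99-fold lower (log2 fold change -2.00 ± 0.44, 95% interval -2.95 to -1.05, adjusted p = 0.0129), the 33rd largest fall of the genes tested. Only its PBS libraries reached the low-count filter's minimum of 10, so its place among the genes tested rests on them. The call was lost without PBS replicate 1 (adjusted p = 0.0682) or without irisin replicate 1 (adjusted p = 0.0586), with the log2 fold change at -1.89 and -1.61. The gene makes a membrane receptor and a shorter secreted decoy, and counts per gene do not separate them.

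Levels were scaled to exon length so that different genes could be compared roughly. The length covers the exons of all annotated transcripts, and which of them were expressed was not tested. On that scale Il33 was 5.16 to 7.91 times the level of Il1rl1 in the PBS libraries and 189.7 to 941 times in the irisin libraries. The highest of these ratios, in irisin replicate 1, rests on 2 counts of Il1rl1. Leukocytes that carry ST2 were represented by very few counts. Of 12 markers of group 2 innate lymphoid cells, mast cells and regulatory T cells, 1 was tested, Gata3 (log2 fold change 0.42 ± 0.38, adjusted p = 0.656), and the list summed to 3.87 to 4.35 CPM in PBS and 3.36 to 5.41 CPM in irisin. Fcer1a, Ms4a2, Tpsb2 and Klrg1 had 0 counts in all 6 libraries. Mature adipocyte markers fell in the same libraries as Il1rl1. The 8 of them summed to 193 to 299 CPM in PBS and 47.8 to 54.9 CPM in irisin, with 7 of 7 tested lower and Lep at 0 counts. The 10 endothelial markers summed to 35.9 to 43.3 CPM in PBS and 22.4 to 30.1 CPM in irisin, most of it Tek, which was the 1 lower gene of 2 tested (33.8 ± 3.10 and 22.4 ± 3.81 CPM, adjusted p = 0.0303). Pecam1, Cdh5, Kdr, Tie1 and Cldn5 had 0 to 6 counts in a library, and Vwf had 0, 2 and 0 counts in PBS and 5, 8 and 8 in irisin. The part of either list in the fall of Il1rl1 was not tested.

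Il1rl1 lies on chromosome 1 from 40429570 to 40465415, plus strand, with 5 transcripts and 6894 exon bases. RefSeq gives it a distal and a proximal start, whose promoter windows (GRCm38.p6, plus strand, chr1:40429320-40429619 and chr1:40439379-40439678) are shown for comparison with those of Il33, and the absence of capitals means that none of the 4 motifs was found.
Il1rl1 distal start: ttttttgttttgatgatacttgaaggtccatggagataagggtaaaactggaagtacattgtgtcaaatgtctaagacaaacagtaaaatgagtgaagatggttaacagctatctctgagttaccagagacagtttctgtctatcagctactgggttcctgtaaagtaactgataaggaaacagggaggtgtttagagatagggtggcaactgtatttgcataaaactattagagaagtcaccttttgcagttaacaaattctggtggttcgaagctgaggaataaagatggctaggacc
Il1rl1 proximal start: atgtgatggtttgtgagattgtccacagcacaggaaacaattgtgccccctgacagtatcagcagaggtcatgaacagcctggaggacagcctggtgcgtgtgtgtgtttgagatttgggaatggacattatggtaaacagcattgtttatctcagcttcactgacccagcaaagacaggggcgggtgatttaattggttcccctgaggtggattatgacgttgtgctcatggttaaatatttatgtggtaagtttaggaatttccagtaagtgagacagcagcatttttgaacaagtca
Neither of these windows has a TATAAA, unlike both windows of Il33. Promoter windows were found for 8 of the 9 genes, 13 windows in all, of which 6 held TATAAA, 2 the NF-κB-like motif (1 match shared by overlapping windows of Il1rn), 2 the AP-1-like motif (Il1rn and Il1a) and 0 the STAT-like motif.

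Il1r1, which encodes the signalling receptor for IL-1α and IL-1β, had the highest level of the 9 genes and rose. It lies on chromosome 1 from 40225080 to 40317257, plus strand. It was at 339, 321 and 284 CPM in PBS and at 436, 499 and 509 CPM in irisin. All irisin libraries lay above all PBS libraries, as in 12.1% of all genes tested. The difference was 1.53-fold (log2 fold change 0.61 ± 0.09, 95% interval 0.41 to 0.82, adjusted p = 0.00102). This call was kept in all 13 alternative fits, with log2 fold changes from 0.53 to 0.68. The stromal markers also summed higher in the irisin libraries, most of the sum being the collagens Col3a1, Col1a1 and Col1a2, but single markers went both ways, with 2 of 10 higher (Pdgfra and Col1a1) and 2 lower (Thy1 and Lum). Pdgfra, a receptor gene of fat stromal cells, was at 1161 ± 36.3 CPM in PBS and 1765 ± 150.2 CPM in irisin, 1.52-fold higher (adjusted p = 6.20e-04). Thy1, a surface protein of stromal cells, was at 39.3 ± 9.57 and 16.1 ± 3.16 CPM, 2.46-fold lower (adjusted p = 0.00138). The part of these markers in the rise of Il1r1 was not tested. By the rule used for Il33, the genes most like Il1r1 were Fbxo10 (distance 0.0384), Gys1 (0.0411), which encodes muscle glycogen synthase, and Nod1 (0.0507), which encodes a sensor of bacterial peptidoglycan.

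Il1rap, the accessory chain that both receptors need, was at 74.9, 81.9 and 88.9 CPM in PBS and at 98.9, 103 and 93.5 CPM in irisin. The groups did not overlap, as in 23.6% of all genes tested, yet the 1.20-fold difference did not pass (log2 fold change 0.27 ± 0.10, 95% interval 0.05 to 0.48, adjusted p = 0.151). It passed as higher without PBS replicate 3 (adjusted p = 0.0348), without PBS replicate 3 and irisin replicate 1 together (0.0103) and with limma-voom (0.0396). Those fits passed more of all genes tested (1290, 1680 and 1327) than edgeR with all 6 libraries (912). The libraries left out were those that lay apart on the second principal component of these same data. Il1rap (chromosome 16, 26581704 to 26730117, plus strand) shares 552 exon bases with a predicted gene on the opposite strand, and whether counting used strand is not stated. Per exon length, Il1r1 stood at 5.71 to 8.08 times Il1rap in PBS and 7.87 to 9.73 times in irisin.

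Il1r1 and Il1rl1 are neighbours in a receptor gene cluster of chromosome 1, and the tested genes of that cluster did not move together. In order along the plus strand come Map4k4, Il1r2, Il1r1, Il1rl2 and Il1rl1. Map4k4, a kinase gene at the edge of the cluster, rose from 148 ± 13.4 to 188 ± 8.60 CPM (log2 fold change 0.34 ± 0.09, adjusted p = 0.0412). Il1r2, which encodes a decoy receptor for IL-1, was at 7.41 ± 2.03 and 11.8 ± 2.43 CPM and did not pass (0.69 ± 0.24, adjusted p = 0.115). It passed as higher without PBS replicate 3 (adjusted p = 0.0226), without that library and irisin replicate 1 together (0.00765) and with limma-voom (0.0254). These are the fits named for Il1rap, in which more of all genes passed. Il1rl2, the receptor for IL-36, was at 162, 149 and 177 CPM in PBS and 211, 203 and 203 CPM in irisin and rose 1.27-fold (0.34 ± 0.09, adjusted p = 0.0337). The Il1rl2 call was lost without any 1 library other than PBS replicate 3 (adjusted p 0.105 to 0.159) and with total counts alone (0.11). The Map4k4 call was lost in the same fits (0.0628 to 0.202, and 0.111 with total counts) and with DESeq2 (0.0525). A predicted gene in this window also passed as higher. Of these 5 named genes Il1rl1 was the only one that was lower. Il18r1, whose annotated start lies 137 bases beyond the end of Il1rl1, had 0 counts in every PBS library and 3, 1 and 3 counts in irisin, and Il18rap had 2 counts in 1 irisin library, so the receptor for IL-18 was at or near the limit of detection.

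**Figure D2:**
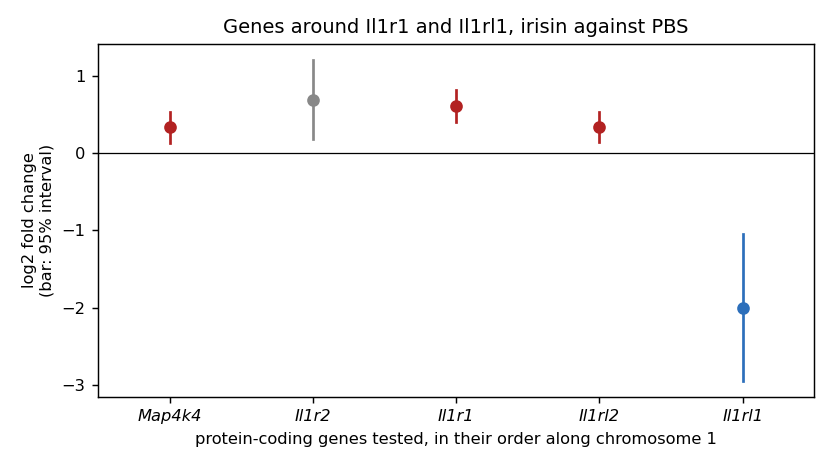
Log2 fold change of irisin against PBS (y axis, bars are 95% intervals) for the 5 protein-coding genes tested around Il1r1 and Il1rl1, in their order along chromosome 1 (x axis). Red marks genes that passed as higher, blue lower and grey not past the threshold. Il1rl1 at -2.00 is the only one below 0.

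Tslp, an alarmin cytokine of epithelial and stromal cells, fell. Its level was 17.7, 18.5 and 23.7 CPM in PBS and 13.8, 11 and 10.7 CPM in irisin, on 57 to 129 counts per library. Every irisin library lay below every PBS library, as in 11.5% of all genes tested. The difference was 1.68-fold (log2 fold change -0.75 ± 0.18, 95% interval -1.14 to -0.36, adjusted p = 0.0215). The call was lost without irisin replicate 2 (adjusted p = 0.103) or irisin replicate 3 (adjusted p = 0.108). Tslp lies on chromosome 18 from 32815383 to 32819797, and the 1 tested gene within 250 kb of it did not pass. By the rule used for Il33, the genes most like Tslp were Mtx3 (distance 0.0761), Gpnmb (0.0774), which encodes a transmembrane glycoprotein, and Lum (0.0801), which encodes the matrix proteoglycan lumican. Lum fell from 428 ± 72.4 to 253 ± 42.0 CPM (log2 fold change -0.76 ± 0.14, adjusted p = 0.00659). The adipocyte marker sum and Tek, given beside Il1rl1, were lower in the same libraries, and their part in the fall of Tslp was not tested.

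Il18, a cytokine made as an inactive precursor (chromosome 9, 50554827 to 50581840, plus strand), showed no difference that these libraries could resolve. It was at 5.08, 9.19 and 3.5 CPM in PBS and at 5.6, 5.99 and 6.28 CPM in irisin. The PBS libraries enclosed the irisin libraries, and the ratio of irisin to PBS was 0.998 (95% interval of the log2 fold change -0.68 to 0.68, adjusted p = 0.998). That interval leaves room for a change in either direction. Counts were 35, 58 and 19 in PBS and 35, 31 and 40 in irisin, so the spread was wider among the PBS libraries. Of the 12 tested genes within 250 kb of Il18, 0 passed in edgeR or DESeq2 and 1 as lower in limma-voom, and the same number, 1, had an unadjusted p under 0.05 in edgeR.

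Il1a, Il1b and Il1rn, the genes of both classical IL-1 cytokines and of the antagonist that blocks their receptor, were near or below detection. All 3 lie on chromosome 2, Il1rn from 24336853 to 24351494, Il1a from 129299610 to 129309972 and Il1b from 129364570 to 129371139. Il1b had 0 counts in all 6 libraries, which allows up to 0.435 to 0.58 CPM per library at a limit of 3 counts. Il1a had 0, 1 and 0 counts in PBS and 3, 4 and 4 in irisin, a ratio of 11.5 with a 95% counting interval of 1.67 to 496. Il1rn had 2, 0 and 5 counts in PBS and 8, 6 and 5 in irisin, a ratio of 2.84 with an interval of 1.14 to 8. These intervals cover counting error only, and in edgeR with no low-count filter neither gene passed (adjusted p = 0.329 for Il1a and 0.639 for Il1rn). Il1a shares 222 exon bases with a predicted gene on the other strand, so its few counts are uncertain.

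**Figure D3:**
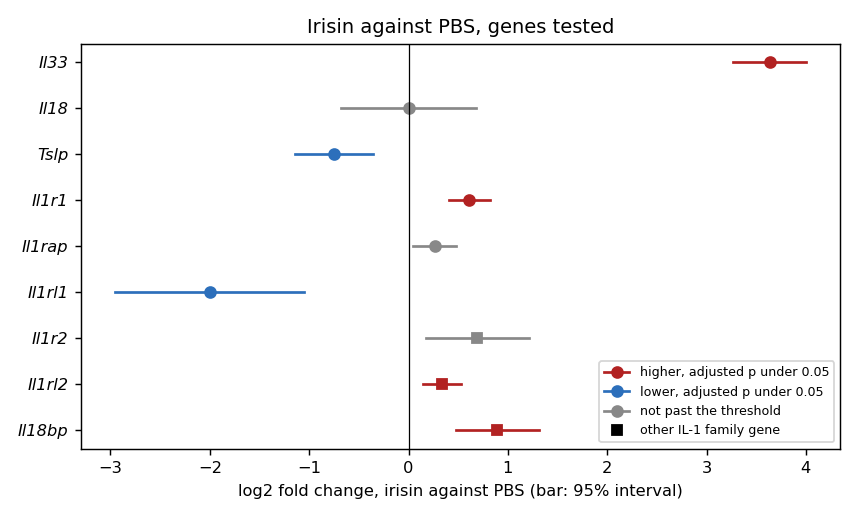
Log2 fold change of irisin against PBS (x axis) with its 95% interval for the 6 genes tested (circles) and the 3 tested other genes of the IL-1 family (squares), coloured by call. Il33 stands alone at 3.64, Il1rl1 at -2.00 has the widest interval, and Il18 is centred on 0.

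Per exon length the order of the 9 genes differed between the groups. That order is rough, because the lengths cover all annotated transcripts of a gene and not those expressed. In PBS it was Il1r1 at 49.5 ± 4.35 CPM per kb, Tslp at 15.0 ± 2.46, Il1rap at 7.21 ± 0.618, Il18 at 5.74 ± 2.85, Il33 at 2.91 ± 0.409 and Il1rl1 at 0.463 ± 0.0546 (SD, n = 3). Il1rap and Il18 overlapped, and the other neighbours in this order did not, although the lowest Il18 library, at 3.39, nearly met the highest Il33 library, at 3.38. In irisin Il1r1 was at 75.6 ± 6.22 CPM per kb and Il33 came next at 36.0 ± 6.92, with no overlap between them. Tslp at 8.88 ± 1.27 and Il1rap at 8.67 ± 0.429 then overlapped, and Il18 followed at 5.78 ± 0.333. Il1a at 0.318 ± 0.0742, Il1rn at 0.194 ± 0.0466 and Il1rl1 at 0.115 ± 0.0605 formed the lower end, where Il1rn and Il1rl1 overlapped. In PBS Il1rn (0.0729 ± 0.0850) and Il1a (0.0268 ± 0.0463) were lowest above Il1b, and they overlapped.

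**Figure D4:**
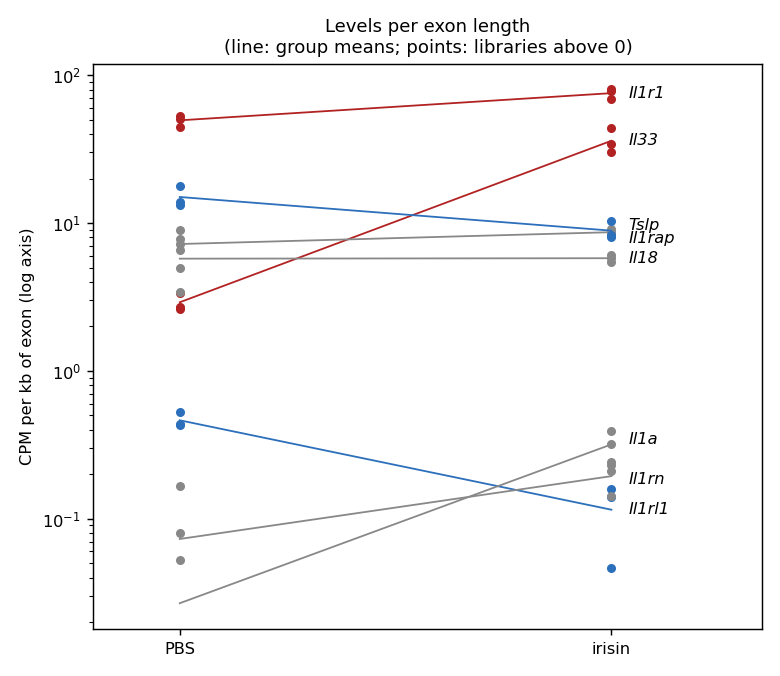
CPM per kb of exon (log y axis) in PBS and irisin (x axis), with a line between group means and points for libraries above 0. Red and blue mark genes that passed as higher and lower, grey those not past the threshold or not tested, and Il1b, at 0, is not drawn. Il33 crosses Il18, Il1rap and Tslp to stand next to Il1r1.

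Of 95 other genes of these pathways in 6 lists, 57 were tested, 12 rose and 1 fell, which is 21.1% and 1.75% of those tested beside 4.20% and 3.22% of all genes. Their median log2 fold change was 0.08. Il13ra2, among those that rose, was tested only because its irisin libraries reached the low-count filter's minimum of 10. The lists were chosen with earlier results of these data known, so these shares do not test whether the pathways changed as sets. In the remainder of the IL-1 family 3 of 13 genes were tested (1 had no row) and 2 rose, Il1rl2 (above) and Il18bp, which encodes the secreted protein that neutralises IL-18. Il18bp was at 10.6, 8.4 and 12.7 CPM in PBS and 17.4, 18.2 and 22.9 CPM in irisin (log2 fold change 0.89 ± 0.19, adjusted p = 0.0112). Its call was lost without PBS replicate 2 (adjusted p = 0.0584) or irisin replicate 3 (adjusted p = 0.0743).

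In the relay from the receptors through MyD88, IRAK kinases and TRAF6, 3 of 21 tested genes rose and 0 fell (median log2 fold change 0.04). None fell in DESeq2 or limma-voom, and 1 was lower at an unadjusted p under 0.05 in edgeR. Those that rose were Irak3, which encodes an IRAK that restrains the relay (82.7, 70.8 and 90.9 CPM in PBS, 180.0, 175 and 167 CPM in irisin, log2 fold change 1.10 ± 0.10, adjusted p = 1.45e-05), Tifa, an adaptor that binds TRAF6 (9 ± 1.31 to 25.9 ± 2.79 CPM, 1.53 ± 0.17, adjusted p = 6.20e-05), and Map3k8, the kinase that links NF-κB signalling to ERK (23.6 ± 3.47 to 45.8 ± 6.88 CPM, 0.96 ± 0.15, adjusted p = 0.00109). All 3 calls were kept in the 13 alternative fits. The shared adaptor Myd88 was at 114 ± 16.4 and 120.3 ± 5.25 CPM and did not pass (adjusted p = 0.789), and neither did Irak4 (35.8 ± 4.07 and 45.5 ± 1.27 CPM, adjusted p = 0.116, and 0.0401 without PBS replicate 3 and irisin replicate 1) or Traf6 (29.8 ± 1.49 and 27.8 ± 1.13 CPM, adjusted p = 0.779).

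Among genes that mature or release IL-1 family cytokines, 3 of 15 tested rose and 0 fell (median log2 fold change -0.01). In limma-voom 1 fell and in DESeq2 0, and 1 was lower at an unadjusted p under 0.05 in edgeR. Casp4, the caspase that senses cytosolic lipopolysaccharide (caspase-11 in mice), was at 16.7, 22.5 and 18.4 CPM in PBS and 45.9, 42.7 and 45.7 CPM in irisin (log2 fold change 1.22 ± 0.14, adjusted p = 6.80e-05). Ninj1, which encodes a protein that ruptures the membrane of dying cells, rose from 37.7 ± 4.72 to 67.7 ± 4.97 CPM (0.84 ± 0.12, adjusted p = 5.42e-04). Gsdmd, the pore-forming gasdermin D, rose from 63.4 ± 7.91 to 86.5 ± 2.14 CPM (0.45 ± 0.11, adjusted p = 0.0227), and its call was lost when any 1 library other than PBS replicate 3 was left out (adjusted p 0.0702 to 0.117) and with total counts alone (0.0613). Casp1, the protease that cuts the precursors of IL-1β and IL-18, did not pass (12.4 ± 3.29 and 14.5 ± 4.11 CPM, adjusted p = 0.694), and the inflammasome sensor Nlrp3 had 0 to 2 counts in a library.

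For Tslp, the receptor chain Crlf2 was at 8.43 ± 2.06 and 9.58 ± 1.71 CPM and did not pass (adjusted p = 0.803), while its partner Il7r had 0 to 3 counts in a library. In this list, with IL-25 and IL-7, 1 of 8 tested genes rose, Jak2, a kinase of many cytokine receptors, from 40.5 ± 5.48 to 72.5 ± 2.24 CPM (log2 fold change 0.84 ± 0.12, adjusted p = 4.10e-04). Il7 was at 3.16 ± 0.735 and 5.90 ± 1.43 CPM (0.92 ± 0.30, adjusted p = 0.0945). Of 6 other alarmins and alarmin receptors tested, 1 fell, Lgals3, which encodes galectin-3 (93.1 ± 2.12 to 70.2 ± 4.79 CPM, -0.41 ± 0.10, adjusted p = 0.0195). That call did not hold when PBS replicate 1 or 2, or irisin replicate 2 or 3, was left out (adjusted p from 0.0571 to 0.129). Hmgb1, a nuclear protein that also acts as an alarmin, was at 98.6 ± 7.85 and 106 ± 6.33 CPM and did not pass (adjusted p = 0.675).

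Receptors for the type 2 cytokines IL-4 and IL-13, which IL-33 and TSLP are known to elicit from lymphocytes, rose, and these were 3 of the 4 genes tested on that list. The other one, the eosinophil chemokine Ccl24, was at 6.27 ± 1.25 and 4.12 ± 0.59 CPM and did not pass (log2 fold change -0.59, adjusted p = 0.248). Il4ra, the chain shared by both cytokines, was at 441, 425 and 392 CPM in PBS and 724, 757 and 723 CPM in irisin (log2 fold change 0.81 ± 0.08, adjusted p = 2.54e-05). Il13ra1, the signalling IL-13 chain, rose from 82.3 ± 8.98 to 159 ± 17.5 CPM (0.96 ± 0.11, adjusted p = 9.25e-05). Il13ra2, the decoy receptor for IL-13, had 1, 4 and 0 counts in PBS and 25, 29 and 16 in irisin (3.80 ± 0.64, adjusted p = 0.00196). It was tested because its irisin libraries alone reached the low-count filter's minimum of 10. Its log2 fold change was 5.30 without PBS replicate 2, which held 4 of the 5 PBS counts, and 3.32 to 4.05 in the other alternatives. The calls of all 3 receptors were kept in the 13 alternative fits. The cytokines themselves were at the limit of detection, with 0 counts of Il13 in all libraries, 0 to 2 counts of Il4 and 0 to 2 of Il5.

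**Figure D5:**
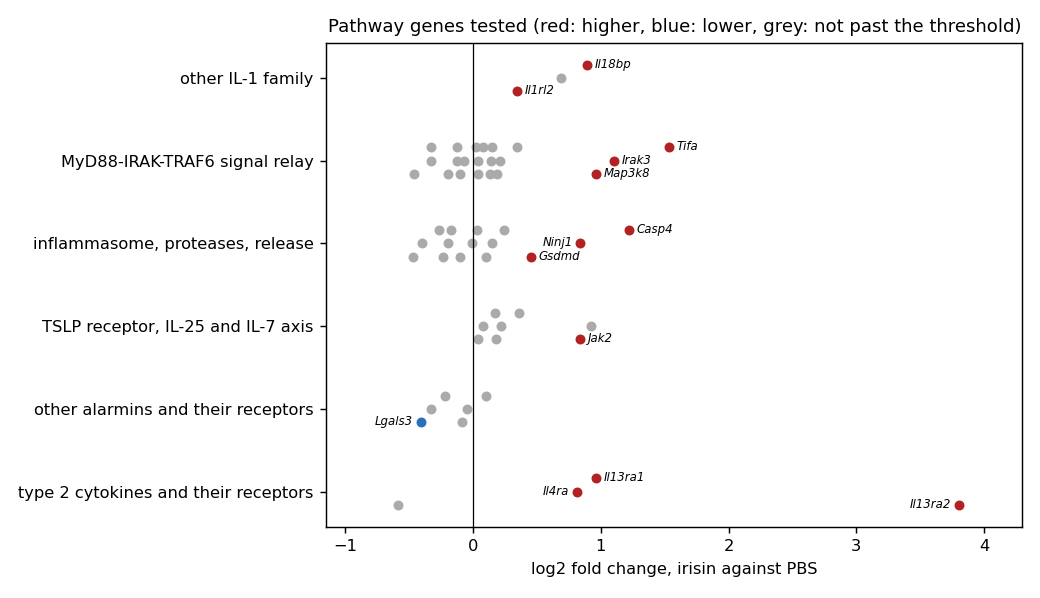
Log2 fold change of irisin against PBS (x axis) for each tested gene of the 6 pathway lists (rows), 1 point a gene, with the 13 genes that passed named. Il13ra2 at 3.80, Tifa at 1.53, Casp4 at 1.22 and Irak3 at 1.10 lie farthest to the right, and most of the MyD88 relay lies near 0.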

How the data were processed

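Polyadenylated RNA of 6 libraries of cultured cells, lysed in a 96-well plate, was measured with an ultra-low-input RNA-seq protocol (Immunological Genome Project), per the labels' protocols. STAR 2.7.3a, featureCounts and mm10 are named, per the submitters' processing notes, while no source used here gives the annotation or the strand setting. Unnormalized whole-number counts, 1 row a gene symbol, were deposited by the authors. Sample titles gave the groups and replicate numbers.

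The counts were scaled in edgeR 4.0.16 (R 4.3.3) with TMM factors (1.02 to 1.03 in PBS and 0.969 to 0.981 in irisin), 12296 genes passed filterByExpr (count minimum 10), and irisin was compared with PBS by the robust quasi-likelihood test, Benjamini-Hochberg adjusted, at a threshold of 0.05. For CPM the library size is the TMM-scaled sum over tested genes. The test was checked on simulated counts with a common spread between libraries and with changes only in genes of higher level than Il1rl1. Calls at low counts were not covered by that check. Alternatives were RLE factors, total counts, no filter, DESeq2 1.42.0, limma-voom (limma 3.58.1), a replicate block, an adjusted p of 0.10, each library left out, and PBS replicate 3 with irisin replicate 1 left out. Positions and exon lengths came from GENCODE M21, which matched 52936 of the symbols (96.2%), and promoter windows from RefSeq (GRCm38.p6).

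The 9 genes and all lists were chosen with earlier results of these data known. Genes named were the 9 genes, every called gene of the pathway lists, called neighbours within 250 kb and the genes of most similar profile. Genes with predicted (Gm), Rik or pseudogene (-ps) symbols were passed over in the search for similar profiles. Other pathway, cluster and marker genes (such as Myd88, Irak4, Traf6, Casp1, Nlrp3, Crlf2, Il7, Hmgb1, Il1r2, Il18r1 and Gata3) were named for their role after their values were seen.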

Additional observations from a re-analysis of the deposited data

How the results depend on the processing

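Il33 and Il1r1 kept their direction and call in all 13 alternative fits (log2 fold change 3.47 to 3.75 and 0.53 to 0.68). Il1rl1 ranged from -2.34 to -1.61, Tslp from -0.88 to -0.61 and Il1rap from 0.19 to 0.33, all with unchanged direction. Il18, centred on 0, changed sign with the replicate block (0.07) and with DESeq2 (0.00 after rounding), and ranged from -0.25 to 0.46 with 1 library left out (0.46 without PBS replicate 2 and 0.04 without irisin replicate 1), never past the threshold. With 1 library left out, 589 to 1290 genes passed in all, 2 to 3 of the 9 genes were higher and 1 to 2 lower, and 9 to 13 pathway genes were higher and 0 to 4 lower. Without PBS replicate 3 and irisin replicate 1 together, 1680 genes passed and 7 pathway genes were lower. The genes of these sets that gained a call in that fit were Il1rap, Il1r2, Irak4, Peli1, Ikbkg, Capn2, Txnip, Traf3ip2, Anxa1 and S100a4. Pathway genes lower numbered 3 with total counts alone, 4 with no low-count filter, and 2 each with limma-voom and at an adjusted p of 0.10. The causes of these shifts were not tested.

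Deviations of same-numbered PBS and irisin libraries correlated at -0.225, 0.139 and -0.16. With so few libraries, these values cannot decide whether same-numbered libraries were paired. With the replicate number as a block, 691 genes passed, 1 of the 9 genes was lower (Tslp at adjusted p = 0.0556 by edgeR) and 10 pathway genes were higher and 0 lower. The block also ended the calls of Map4k4 (adjusted p = 0.108), Il1rl2 (0.101), Gsdmd (0.0639) and Lgals3 (0.0711). Depth limits Il1rl1, Il1rn, Il1a and Il1b most, with at most 25 counts per library.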
